A study of Homo sapiens with 16 samples.

Results

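The sterol and fatty acid synthesis genes are the genes by which a cell makes cholesterol and long-chain fatty acids and adjusts both to its needs. A list of 44 gene symbols was taken, and all 44 were found among the 39007 symbols of the expression table. The members are 17 enzymes from HMG-CoA to cholesterol, 6 genes of sterol control, 2 genes of sterol transport and esterification, 6 genes of acetyl-CoA supply and fatty acid synthesis, 5 desaturases, 4 elongases and 4 acyl-CoA synthetases. The rule for membership was the function of a gene and set no limit on its expression.

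RNA was sequenced from the T24 bladder cancer cell line and from the gemcitabine-resistant GRC1 cell line, which was grown out of T24 through repeated rounds of gemcitabine exposure and regrowth. There were 16 libraries, 4 each of the parental phase P0 (T24 not selected with the drug), the early phase P3, the intermediate phase P7 and the late phase P15. All phases were kept in the same medium with fetal bovine serum, which itself carries lipoproteins, and all titles hold the letters NT, which the labels do not explain. GRC1 is 1 resistant line, and by the study's methods P3, P7 and P15 are stages of 1 selection, not independent selections. The identity of the P15 cells with T24 was not tested. The labels do not say whether the 4 libraries of a phase came from separate cultures, so the p-values measure the spread between these libraries, which may be technical.

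Animal cells sense cholesterol in the membrane of the endoplasmic reticulum. When sterols are scarce, the escort protein SCAP carries the transcription factors SREBP-1 and SREBP-2 (genes SREBF1 and SREBF2) to the Golgi, where they are cut, and the released parts switch on genes of sterol and fatty acid synthesis. When sterols are plentiful, INSIG proteins hold SCAP back, so the enzymes of the pathway commonly rise and fall together, and INSIG1 is itself a target of the factors it restrains.

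The values are log2(CPM + 1), where CPM is the count of a gene scaled to the total of its library. Estimated library totals were 33.6 to 50.0 M counts, so that 3 counts amounted to 0.0599 to 0.0892 CPM, and all 44 members passed the filter of a mean above 1 CPM that left 13249 genes for testing. Phases were compared on the log2 scale with limma, and differences are given as log2 fold change ± standard error (SE) with Benjamini-Hochberg adjusted p-values over the 13249 genes. Genes with an adjusted p below 0.05 and a change of at least 2-fold were taken as differentially expressed. Of 15 markers of urothelial cells, 8 were tested, and 7 of these were at least 2-fold lower in P15 than in P0, against 11.5% of all tested genes. KRT7 went from 9.82 to 9.95 in P0 to 3.59 to 3.73 in P15, while KRT18 was 8.85 to 8.92 and 9.21 to 9.38, and CDH1 lay at or below 0.13 in every library. All 5 proliferation markers were lower in P15 than in P0 by adjusted p, against 40.9% of all tested genes. No leukocyte or hepatocyte marker passed the filter. Of the fibroblast markers, COL1A1 and COL3A1 passed. COL1A1 was at least 2-fold higher in P15 (4.57 to 4.76) than in P0, as were 12.2% of all tested genes. COL3A1, at 0 in P0 and 4.40 to 4.57 in P15, passed the filter only through P15, so its rise there was fixed by the filter. COL1A2, DCN, LUM and PDGFRA did not pass and had P15 means of 0.31, 0, 0.09 and 0.17. Markers also moved at P3, where 5 of the 8 urothelial markers were lower and 3 higher than in P0 by adjusted p (37.3% and 31.4% of all tested genes). FOXA1 was 4.88 ± 0.056 in P0 and 3.62 ± 0.101 in P3 (SD, n = 4), and COL1A1 was 2.55 to 2.62 and 1.38 to 1.55. CDH5, the 1 endothelial marker of 3 that was tested, was 2.59 to 2.97 in P0, 0.13 to 0.38 in P3, at 0 in P7 and 0.13 to 0.29 in P15. It passed the filter only through P0. In a bulk sample, fewer cells of a type and less RNA per cell cannot be told apart, and the part of these shifts in the changes at P3, P7 and P15 described below was not tested.

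The lipid genes went down and then up along the selection. In P3 against P0, 32 of the 44 members were lower and 7 higher by adjusted p, 39 in all, where 37.3% of all tested genes were lower and 31.4% higher, 68.7% in all. In P7 against P3, 35 were higher and 5 lower, against 30.3% and 28% of all tested genes, 58.2% together. In P15 against P7, 32 were higher and 11 lower, against 46.3% and 40.1%, 86.4% together. The median log2 fold change of the members over these successive steps was -0.54, 0.27 and 0.70, where the median of all tested genes was -0.03, 0.01 and 0.06.

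**Figure D1:**
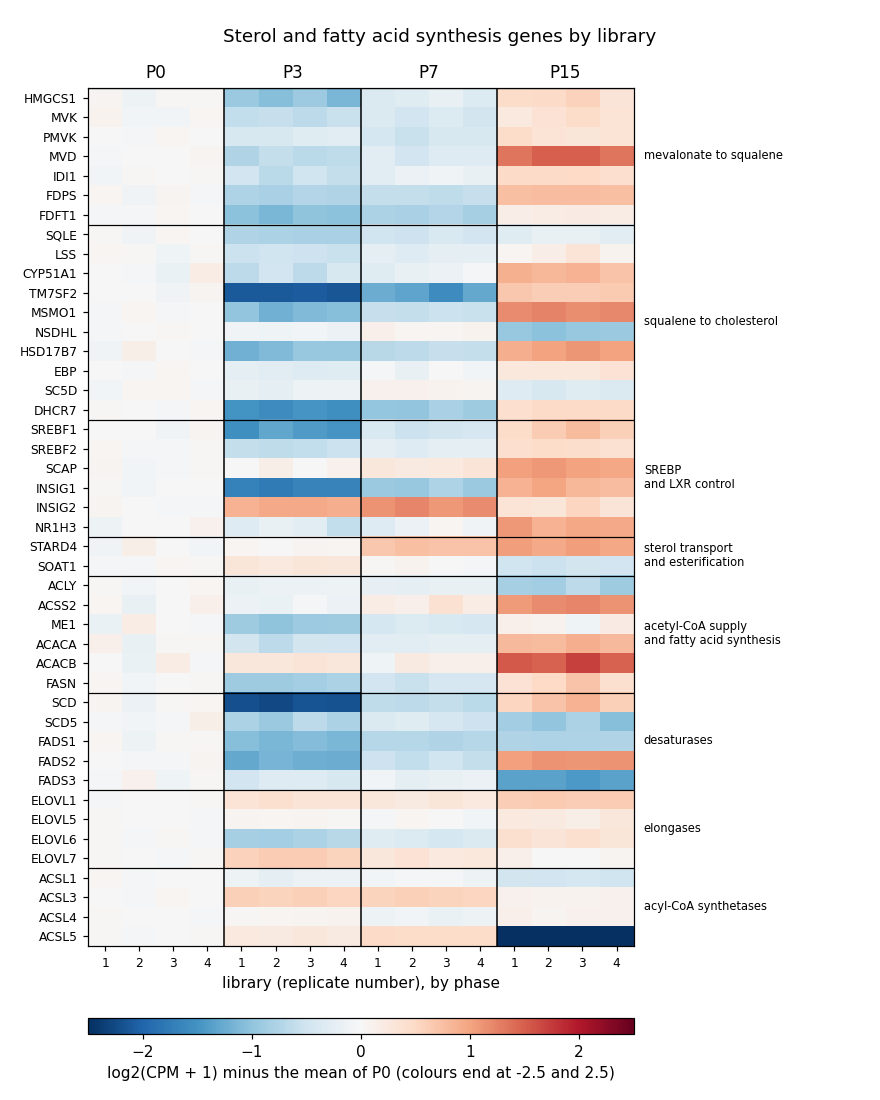
Each row is a member and each column a library, grouped by phase, and the colour gives log2(CPM + 1) minus the mean of the 4 P0 libraries. Most sterol enzymes, SREBF1, INSIG1 and SCD are blue in P3, paler in P7 and red in P15, while INSIG2, NSDHL, FADS3, ACLY and ACSL5 depart from that pattern.

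Changes of at least 2-fold came at the first and the last step. In P3 against P0, 11 members were differentially expressed and all 11 were lower, against 2.51% of tested genes lower and 1.95% higher, 4.47% in either direction. They were HMGCS1, FDFT1, TM7SF2, MSMO1, DHCR7 and HSD17B7 of the sterol enzymes, INSIG1 and SREBF1 of the control genes, and the desaturases SCD, FADS1 and FADS2. In P7 against P3, SCD alone passed, in the upward direction (0.996% of tested genes were higher and 0.845% lower, 1.84% in either direction). In P15 against P7, 13 members were higher and 3 lower, against 13.4% and 12.1% of tested genes, 25.5% in all. The 13 were MVD, FDPS, TM7SF2, MSMO1, DHCR7, HSD17B7, NR1H3, INSIG1, SREBF1, ACACB, ACACA, SCD and FADS2, and the 3 were NSDHL, FADS3 and ACSL5.

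Against the parental cells, P7 had 27 members lower and 9 higher by adjusted p, with 34.2% of tested genes lower and 27.9% higher, 62.1% in all. INSIG2 (higher) and TM7SF2 (lower) were the only members at least 2-fold apart, where 1.86% of tested genes were higher and 1.52% lower, 3.37% in all. P15 had 32 members higher and 10 lower than P0 by adjusted p, against 45.3% and 40.9% of tested genes, 86.2% together. Of these, 8 were at least 2-fold higher and 2 at least 2-fold lower, against 12.2% and 11.5%, 23.6% in all. The 8 were MVD, MSMO1, HSD17B7, SCAP, STARD4, ACSS2, ACACB and FADS2, and the 2 were FADS3 and ACSL5. The widest gap was between P3 and P15, where again 32 members were higher and 10 lower by adjusted p (46.1% and 41.1% of tested genes, 87.2% together), and 21 were at least 2-fold higher and 1, ACSL5, at least 2-fold lower (15% and 12.2%, 27.1% in all).

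**Figure D2:**
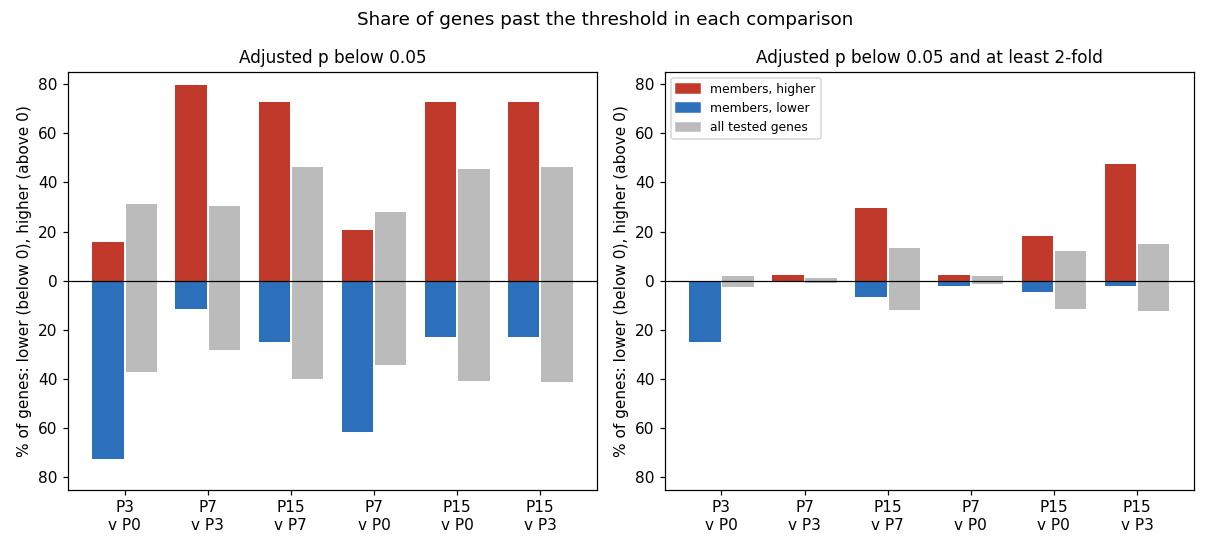
Bars give the percentage of genes past the threshold in each of the 6 comparisons, higher genes above 0 and lower genes below, with the 44 members in colour and all 13249 tested genes in grey. In P3 against P0 the lower members (72.7% at adjusted p below 0.05) exceed the grey bar of 37.3%, and in P15 against P3 the higher members at least 2-fold apart (47.7%) exceed the grey bar of 15%.

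Most members that were lower in P3 than in P0 were also higher in P15 than in P7. P3 against P0 and P15 against P7 have no library in common, and 25 members were lower in the first and higher in the second, which is 78.1% of the 32 in each list. Over all tested genes 2731 did so, 55.3% of those lower in P3 and 44.5% of those higher in P15, or 20.6% of the tested genes. With 32 of the 44 members in each list, a large overlap follows from the list sizes alone. The count of 25 therefore does not show a link between the steps. In 24 of the 44 members every P3 library lay below every other library, against 9.61% of tested genes, and in 29 every P15 library lay above every other, against 34.1%. The phase mean was lowest in P3 and highest in P15 for 24 members, against 18.4% of tested genes. The mean was lowest in P15 for 8 members, which were ACSL5, SC5D, ACSL1, FADS3, SOAT1, NSDHL, SCD5 and ACLY, against 38.5% of tested genes.

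**Figure D3:**
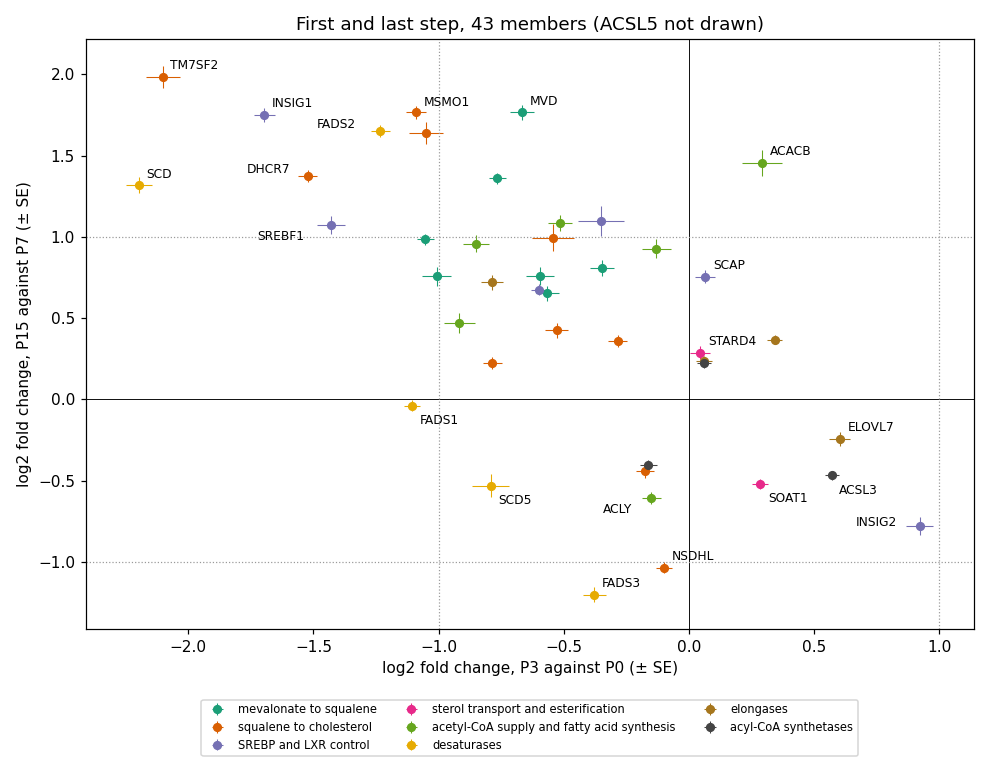
Each point is a member, with the log2 fold change of P3 against P0 on the horizontal axis and of P15 against P7 on the vertical axis, bars of ± SE, dotted lines at 2-fold and colours by role. The 25 members lower in P3 and higher in P15 fill the upper left, FADS3, SCD5, NSDHL and ACLY lie at the lower left, INSIG2, ACSL3, SOAT1 and ELOVL7 at the lower right, and ACSL5 (0.25 and -6.65) is not drawn.

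Among the control genes, SREBF1, which encodes the factor tied most closely to fatty acid synthesis, was 7.04, 7.01, 6.94 and 7.10 in the P0 libraries and 5.49, 5.72, 5.61 and 5.55 in P3. It was 6.64, 6.49, 6.57 and 6.60 in P7 and 7.49, 7.66, 7.82 and 7.62 in P15. The 4 phases did not overlap. SREBF1 fell by 1.43 ± 0.055 on the log2 scale at P3 (limma adjusted p = 1.12e-16), then rose by 0.98 ± 0.055 to P7 (adjusted p = 4.09e-13) and by 1.07 ± 0.055 to P15 (adjusted p = 4.01e-15).

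SREBF2, the factor tied most closely to cholesterol synthesis, moved in the same directions by less. Its P0 libraries read 8.04, 7.94, 7.95 and 8.01, its P3 libraries 7.39, 7.35, 7.36 and 7.45, its P7 libraries 7.75, 7.67, 7.74 and 7.77, and its P15 libraries 8.41, 8.44, 8.42 and 8.36. The phases again did not overlap, with log2 steps of -0.60, 0.34 and 0.68 (largest adjusted p = 3.23e-09). P15 was above P0 by 0.42 ± 0.032 (adjusted p = 1.04e-11).

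INSIG1 and INSIG2 encode the retention proteins of SCAP, and their transcripts went opposite ways at both the first and the last step. INSIG1 was 7.89, 7.80, 7.88 and 7.88 in P0, 6.17, 6.10, 6.19 and 6.20 in P3, 6.94, 6.92, 7.10 and 6.94 in P7, and 8.73, 8.84, 8.69 and 8.64 in P15. INSIG2 was 4.14, 4.07, 4.01 and 4.04 in P0, 4.94, 5.01, 5.02 and 4.98 in P3, 5.19, 5.28, 5.15 and 5.24 in P7, and 4.40, 4.37, 4.60 and 4.38 in P15. No phases of either gene overlapped, and the order of the phases for INSIG1 from lowest to highest was P3, P7, P0, P15, while for INSIG2 it was P0, P15, P3, P7.

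The change of INSIG1 at P3 was -1.70 ± 0.042 and that of INSIG2 was 0.92 ± 0.053 (limma adjusted p = 2.49e-20 and 2.34e-13). From P7 to P15, INSIG1 rose by 1.75 ± 0.042 and INSIG2 changed by -0.78 ± 0.053 (adjusted p = 7.58e-22 and 1.21e-12). Between P3 and P7 both rose, INSIG1 by 0.81 and INSIG2 by 0.23 (adjusted p = 9.3e-14 and 0.000833). Per kilobase of annotated exon, INSIG1 was 63.5 ± 1.83 CPM (SD, n = 4) in P0, 19.4 ± 0.607 in P3 and 116 ± 6.94 in P15, and INSIG2 was 3.99 ± 0.165, 7.78 ± 0.199 and 5.25 ± 0.431. INSIG1 was thus the more abundant of the pair in each of these phases.

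SCAP, the escort of both factors, did not take part in the dip. It was 5.60 to 5.72 in P0 and 5.66 to 5.81 in P3, ranges that overlap, and the difference of 0.07 ± 0.041 did not pass (limma adjusted p = 0.163). It was 5.89 to 5.98 in P7 and 6.63 to 6.75 in P15, 1.02 ± 0.041 above P0 (adjusted p = 2.47e-17). NR1H3, which encodes the oxysterol receptor LXR alpha, was low throughout, at 2.68 to 2.91 in P0, 2.19 to 2.62 in P3, 2.48 to 2.86 in P7 and 3.68 to 3.89 in P15. P15 lay apart from the other phases, 1.10 ± 0.092 above P7 (adjusted p = 5.42e-11), and P7 and P0 overlapped.

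**Figure D4:**
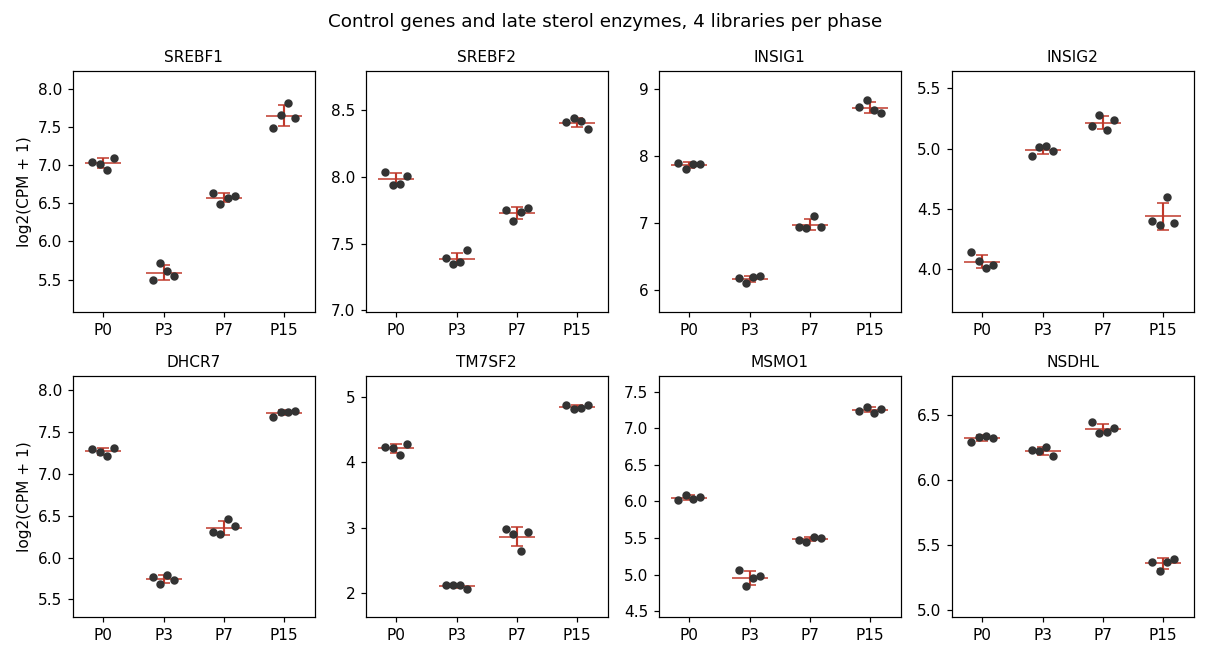
Black points are the log2(CPM + 1) values of the 4 libraries of each phase for 4 control genes and 4 late sterol enzymes, and red bars are the mean ± SD; each panel has its own vertical range, which does not start at 0. INSIG1 and INSIG2 mirror each other between P0 and P3 and between P7 and P15, and NSDHL falls in P15 where DHCR7, TM7SF2 and MSMO1 rise.

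The sequence before the start sites of the members was also examined. RefSeq promoter windows on GRCh38.p14, from 250 bases before to 50 bases after a start site, were found for 41 of the 44 members, the others being SQLE, FDFT1 and FASN. Motifs were searched as letters on both strands: TCACNCCAC for the sterol regulatory element that SREBPs bind, CCAAT for the partner factor NF-Y, and GGGCGG for the partner factor Sp1. CCAAT was present for 30 of the 41 genes (73.2%), against 39.7% of all genes with a window and 43.4% of those tested. GGGCGG was present for 38 (92.7%), against 48.3% and 78.2%. TCACNCCAC was present for 2 of the 41 members (4.9%), SREBF2 and ACSL1, against 1.4% of all genes, and the absence of these letters elsewhere says nothing about binding. Some windows of 1 gene overlap, as do some GGGCGG matches. Of the 29 members with a window that were lower in P3 than in P0, 23 held CCAAT (79.3%), and of the other 12, 7 did (58.3%). NSDHL and FADS3 held CCAAT and were lower in P15 than in P7. SREBF1 and FADS1 held no CCAAT and were lower in P3 than in P0.

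The stretches before the start site are shown for 7 members: a regulator with the sterol element, the regulator INSIG1, the 3 late sterol enzymes and the desaturase with wide swings over the phases, and ACSL5, which went the other way. Each is up to 200 bases long, stops before any exon that GENCODE annotates for the gene, and reads 5′ to 3′ on the gene's strand. Capitals mark TCACNCCAC in SREBF2 and CCAAT or its reverse complement ATTGG in all.
SREBF2 (chr22:41832905-41833104, + strand): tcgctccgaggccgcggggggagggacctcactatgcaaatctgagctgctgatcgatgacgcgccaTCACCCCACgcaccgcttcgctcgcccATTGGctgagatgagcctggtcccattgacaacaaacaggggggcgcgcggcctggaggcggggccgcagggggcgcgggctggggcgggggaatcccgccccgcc
INSIG1 (chr7:155297678-155297775, + strand): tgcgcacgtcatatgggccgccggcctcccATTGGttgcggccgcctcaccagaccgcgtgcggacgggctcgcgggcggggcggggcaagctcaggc
DHCR7 (chr11:71448436-71448593, - strand): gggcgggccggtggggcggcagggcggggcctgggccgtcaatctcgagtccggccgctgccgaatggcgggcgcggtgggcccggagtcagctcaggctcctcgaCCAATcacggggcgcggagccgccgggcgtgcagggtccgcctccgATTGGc
MSMO1 (chr4:165327469-165327666, + strand): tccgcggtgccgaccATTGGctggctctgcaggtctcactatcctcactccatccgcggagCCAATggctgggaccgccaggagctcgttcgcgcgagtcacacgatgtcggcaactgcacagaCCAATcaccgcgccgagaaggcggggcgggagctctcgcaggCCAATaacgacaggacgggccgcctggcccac
TM7SF2 (chr11:65111672-65111844, + strand): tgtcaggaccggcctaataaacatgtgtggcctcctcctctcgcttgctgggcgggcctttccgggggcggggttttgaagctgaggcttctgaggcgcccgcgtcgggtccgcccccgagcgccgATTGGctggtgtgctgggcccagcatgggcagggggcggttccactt
SCD (chr10:100347033-100347232, + strand): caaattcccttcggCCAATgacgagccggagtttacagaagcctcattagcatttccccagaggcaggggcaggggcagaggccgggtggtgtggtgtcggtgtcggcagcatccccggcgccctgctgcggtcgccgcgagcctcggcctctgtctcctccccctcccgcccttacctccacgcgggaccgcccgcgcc
ACSL5 (chr10:112375068-112375234, + strand): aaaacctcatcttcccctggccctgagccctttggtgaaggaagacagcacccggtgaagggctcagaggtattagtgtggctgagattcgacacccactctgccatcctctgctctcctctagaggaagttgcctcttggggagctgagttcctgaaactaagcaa
In SREBF2 the sterol element begins 133 bases and the inverted CCAAT 106 bases before the start site. MSMO1 holds 4 copies of CCAAT in either direction, DHCR7 2, and INSIG1, TM7SF2 and SCD 1 each in the stretch shown. ACSL5 holds none of the 3 motifs there. These are matches of letters in chosen genes. Binding was not measured, and a link between the letters and the changes was not tested.

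The 7 enzymes from HMG-CoA to squalene moved together. All 7 were lower in P3 than in P0, 6 of 7 were higher in P7 than in P3, and all 7 were higher in P15 than in P7, P0 or P3, by adjusted p. Of all tested genes, 37.3% were lower in P3 than in P0 and 30.3% higher in P7 than in P3. In P15, 46.3%, 45.3% and 46.1% were higher than in P7, P0 and P3. Their median log2 fold change was -0.67 at P3, 0.26 at P7 and 0.81 at P15 against the phase before. PMVK, phosphomevalonate kinase, was the enzyme without the P7 recovery, at 4.59 to 4.72 in P3 and 4.44 to 4.60 in P7 (limma adjusted p = 0.0868).

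HMGCS1, which makes HMG-CoA, was 6.59, 6.40, 6.54 and 6.55 in P0, 5.60, 5.45, 5.62 and 5.38 in P3, 6.15, 6.22, 6.34 and 6.17 in P7, and 6.98, 7.00, 7.09 and 6.84 in P15. No phases overlapped. The changes from phase to phase were -1.01, 0.71 and 0.76 (SE 0.057, largest adjusted p = 2.66e-10). An annotated gene on the opposite strand shares 37.7% of its exon bases, and the strand setting of the counting is not given in the sources used here. The drop at P3 stood close to the 2-fold threshold and came under it when P0 replicate 1, P0 replicate 4, P3 replicate 2 or P3 replicate 4 was left out, at -0.96 without the last of these.

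MVD, which makes isopentenyl diphosphate, had the widest gap of the 7 between P15 and P0. It was 5.74, 5.78, 5.77 and 5.85 in P0, 5.03, 5.18, 5.11 and 5.15 in P3, 5.51, 5.30, 5.47 and 5.47 in P7, and 7.13, 7.27, 7.28 and 7.13 in P15. P15 stood clear of all other libraries, 1.76 ± 0.048 above P7 and 1.42 ± 0.048 above P0 (limma adjusted p = 1.1e-20 and 1.01e-18). FDPS, which makes farnesyl diphosphate, was 6.87 to 7.04 in P0, 6.16 to 6.24 in P3, 6.33 to 6.39 in P7 and 7.71 to 7.74 in P15, with a last step of 1.36 ± 0.034 (adjusted p = 2.07e-21). FDFT1, squalene synthase, was 7.82 to 7.91, 6.71 to 6.85, 7.02 to 7.12 and 8.03 to 8.06 in the same order, a first step of -1.05 ± 0.033 (adjusted p = 2.41e-18). IDI1 and MVK, which act before FDPS, stayed under 2-fold at each step, and IDI1 was 1.03 ± 0.047 higher in P15 than in P3. Named pseudogenes exist for FDPS and IDI1, and how reads that fit several genes were counted is not given in the sources used here.

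Of the 10 enzymes from squalene to cholesterol, all 10 were lower in P3 than in P0 and all 10 were higher in P7 than in P3 by adjusted p. The shares of all tested genes were 37.3% and 30.3%. At P15 they parted. Compared with P7, 8 were higher and 2, NSDHL and SC5D, were lower, where 46.3% of all tested genes were higher and 40.1% lower. Compared with P0, 7 were higher and 3, NSDHL, SC5D and SQLE, were lower, against 45.3% and 40.9%.

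TM7SF2, a sterol C14 reductase, had the deepest dip of the sterol enzymes. It was 4.23, 4.22, 4.12 and 4.28 in P0, 2.12, 2.12, 2.13 and 2.07 in P3, 2.98, 2.90, 2.65 and 2.93 in P7, and 4.88, 4.82, 4.83 and 4.87 in P15. The phases did not overlap, and the steps were -2.10, 0.76 and 1.99 (SE 0.068, limma adjusted p = 3.24e-18, 1.55e-09 and 8.58e-19). P7 was still 1.35 below P0 (adjusted p = 2.15e-14). Because 1 is added before the logarithm, folds of low genes such as this one are understated.

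DHCR7, which makes cholesterol from its immediate precursor, was 7.29, 7.26, 7.21 and 7.31 in P0, 5.77, 5.69, 5.79 and 5.73 in P3, 6.30, 6.28, 6.46 and 6.38 in P7, and 7.68, 7.74, 7.74 and 7.75 in P15. No phases overlapped, and the steps were -1.52, 0.61 and 1.37 (SE 0.038, limma adjusted p = 2.74e-20, 2.43e-12 and 1.28e-20). MSMO1, which starts the removal of the C4 methyl groups, was 6.02, 6.09, 6.03 and 6.06 in P0, 5.07, 4.84, 4.95 and 4.98 in P3, 5.48, 5.45, 5.51 and 5.50 in P7, and 7.24, 7.29, 7.21 and 7.26 in P15. It too had no overlap between phases, and P15 exceeded P0 by 1.20 ± 0.041 (adjusted p = 8.7e-19).

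NSDHL acts directly after MSMO1 in the removal of those methyl groups and went the other way at P15. It was 6.29, 6.33, 6.34 and 6.32 in P0, 6.23, 6.22, 6.25 and 6.18 in P3, 6.44, 6.36, 6.37 and 6.40 in P7, and 5.37, 5.30, 5.37 and 5.39 in P15. The P15 libraries lay below all others, with a change of -1.03 ± 0.033 from P7 (limma adjusted p = 2.88e-19). HSD17B7, the reductase that completes the same removal, was 3.95 to 4.17 in P0, 2.84 to 3.09 in P3, 3.33 to 3.46 in P7 and 4.94 to 5.13 in P15, a rise of 1.64 ± 0.068 from P7 (adjusted p = 4.23e-17). The 3 enzymes of that removal were thus not moved alike in P15, 2 being higher and 1 lower than in P7. Pseudogenes are annotated for HSD17B7.

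SC5D, which introduces the C5 double bond, was 6.30 to 6.43 in P0 and 5.97 to 6.07 in P15, lower by 0.35 ± 0.037 (limma adjusted p = 6.3e-09). SQLE, squalene epoxidase, a slow step of the pathway, fell by 0.79 ± 0.038 at P3 and remained 0.24 ± 0.038 below P0 in P15, at 6.97 to 7.10 against 7.19 to 7.33 (adjusted p = 2.54e-06). LSS, which closes the sterol rings, and EBP, the sterol isomerase, changed by less than 2-fold in every comparison. CYP51A1, the C14 demethylase, was listed at 2.69 to 3.05 in P0 and 2.20 to 2.46 in P3. In P7 it was 2.56 to 2.81 and in P15 3.56 to 3.75. Its exons overlap those of 4 other annotated genes, and the overlaps summed over these genes reach or pass its exon length. Bases shared with several genes count more than once in that sum, so the share of its bases is not known. The level of CYP51A1 is therefore uncertain. An annotated gene on the same strand shares 36.4% of the exon bases of EBP.

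Neither STARD4 nor SOAT1, the genes of sterol transport and esterification, was lower in P3 than in P0, and only STARD4 was higher in P15. STARD4, which moves cholesterol between membranes, was 6.22 to 6.45 in P0 and 6.31 to 6.39 in P3, with overlapping ranges and a difference of 0.04 ± 0.041 (limma adjusted p = 0.338). It rose by 0.67 ± 0.041 to P7 and by 0.29 ± 0.041 to P15 (adjusted p = 1.94e-12 and 6.08e-07). Its P15 libraries, 7.26 to 7.36, stood 1.00 ± 0.041 above P0, a value on the 2-fold threshold that was 0.97 to 0.99 when P0 replicate 1, P0 replicate 4, P15 replicate 1 or P15 replicate 3 was left out. SOAT1, which esterifies cholesterol for storage, was 7.01 to 7.09 in P0, 7.30 to 7.35 in P3, 7.02 to 7.14 in P7 and 6.51 to 6.58 in P15. It was higher by 0.28 ± 0.032 in P3 and lower by 0.50 ± 0.032 in P15 than in P0 (adjusted p = 3.56e-08 and 3.83e-13), the reverse of most enzymes at both ends.

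In fatty acid synthesis, FASN, the synthase, was 8.79, 8.67, 8.72 and 8.76 in P0, 7.85, 7.85, 7.89 and 7.95 in P3, 8.26, 8.17, 8.31 and 8.32 in P7, and 9.09, 9.23, 9.44 and 9.13 in P15. The phases did not overlap, and the steps were -0.85, 0.38 and 0.96 (SE 0.052, limma adjusted p = 7.96e-13, 1.47e-06 and 1.35e-14). ACACA, the acetyl-CoA carboxylase that supplies it, was 6.83 to 7.13, 6.36 to 6.54, 6.73 to 6.77 and 7.80 to 7.92, a last step of 1.09 ± 0.049 (adjusted p = 2.53e-16). ACACB, the mitochondrial carboxylase that restrains fatty acid oxidation, was low and did not dip. It was 2.83, 2.65, 2.99 and 2.78 in P0, 3.09, 3.10, 3.14 and 3.09 in P3, 2.71, 3.04, 2.94 and 2.93 in P7, and 4.35, 4.28, 4.52 and 4.29 in P15, 1.55 ± 0.080 above P0 (adjusted p = 4.57e-15), and P0 and P7 overlapped.

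The 2 enzymes that make cytosolic acetyl-CoA went opposite ways at P15. ACLY, which splits citrate, was 9.02 to 9.13 in P0, 8.91 to 8.96 in P3, 8.85 to 8.91 in P7 and 8.20 to 8.43 in P15, lower by 0.81 ± 0.038 than in P0 (limma adjusted p = 6.73e-16). ACSS2, which activates acetate, was 5.26 to 5.59, 5.29 to 5.40, 5.58 to 5.83 and 6.51 to 6.68, higher by 1.15 ± 0.059 than in P0 (adjusted p = 4.21e-15). Per kilobase of exon, ACLY was 105 ± 3.46 CPM (SD, n = 4) in P0 and 59.6 ± 4.39 in P15, and ACSS2 was 8.20 ± 0.788 and 18.3 ± 0.946, so ACLY remained the more abundant transcript. ME1, malic enzyme, a source of NADPH, fell by 0.92 ± 0.061 at P3 (adjusted p = 3.26e-12), and in P15, at 6.11 to 6.42, it overlapped the 6.06 to 6.41 of P0.

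SCD, the desaturase that makes oleate from stearate, had the largest dip of all 44 members on this scale, though not with 0.1 in place of 1 added (-2.21 against -2.37 for TM7SF2), and was the member that passed 2-fold at each of the 3 steps. It was 9.27, 9.07, 9.23 and 9.26 in P0, 7.01, 6.96, 7.04 and 7.03 in P3, 8.58, 8.55, 8.61 and 8.54 in P7, and 9.75, 9.93, 10.07 and 9.80 in P15. No phases overlapped. It fell by 2.20 ± 0.051 (limma adjusted p = 7.22e-21), then rose by 1.56 ± 0.051 and by 1.32 ± 0.051 (adjusted p = 1.6e-17 and 1.07e-17). Per kilobase of exon the parental level was 113 ± 7.08 CPM, which went to 24.4 ± 0.601 in P3, to 72.3 ± 1.59 in P7 and to 181 ± 18.3 in P15 (SD, n = 4). SCD5, a second stearoyl-CoA desaturase, dipped by 0.79 ± 0.073 as well but did not rise in P15, where it was 3.22 to 3.49, overlapping the 3.35 to 3.62 of P3 and below the 4.22 to 4.42 of P0.

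FADS1, FADS2 and FADS3 lie side by side on chromosome 11, from 61792980 to 61892051 in GRCh38. They all fell at P3 and rose at P7, and then took 3 courses. FADS2, the delta-6 desaturase, was 6.42, 6.37, 6.37 and 6.48 in P0, 5.13, 5.24, 5.18 and 5.16 in P3, 5.90, 5.80, 5.91 and 5.81 in P7, and 7.44, 7.53, 7.52 and 7.53 in P15. FADS1, the delta-5 desaturase, was 9.09, 8.92, 9.07 and 9.07, then 7.97, 7.90, 7.96 and 7.90, then 8.32, 8.32, 8.29 and 8.32, and in P15 8.28, 8.26, 8.27 and 8.29. FADS3 was 6.85, 7.00, 6.79 and 6.92, then 6.42, 6.57, 6.57 and 6.49, then 6.83, 6.65, 6.70 and 6.74, and in P15 5.56, 5.55, 5.46 and 5.55.

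From P7 to P15, FADS2 rose by 1.65 ± 0.038 (limma adjusted p = 3.62e-22), FADS1 changed by -0.04 ± 0.033 (adjusted p = 0.283) and FADS3 by -1.20 ± 0.046 (adjusted p = 1.08e-17). The P15 libraries of FADS2 lay above and those of FADS3 below every other library, while FADS1 stayed 0.76 ± 0.033 below P0 (adjusted p = 9.81e-17). FADS1 and FADS2 share some exon bases on opposite strands. FADS1 also overlaps MIR1908, and FADS2 overlaps FEN1, each on the same strand. Summed over these genes, the overlaps come to 5.6% of the exon bases of FADS1 and 5.1% of those of FADS2. Part of the reads of FADS1 and FADS2 could thus be assigned to another of these genes.

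**Figure D5:**
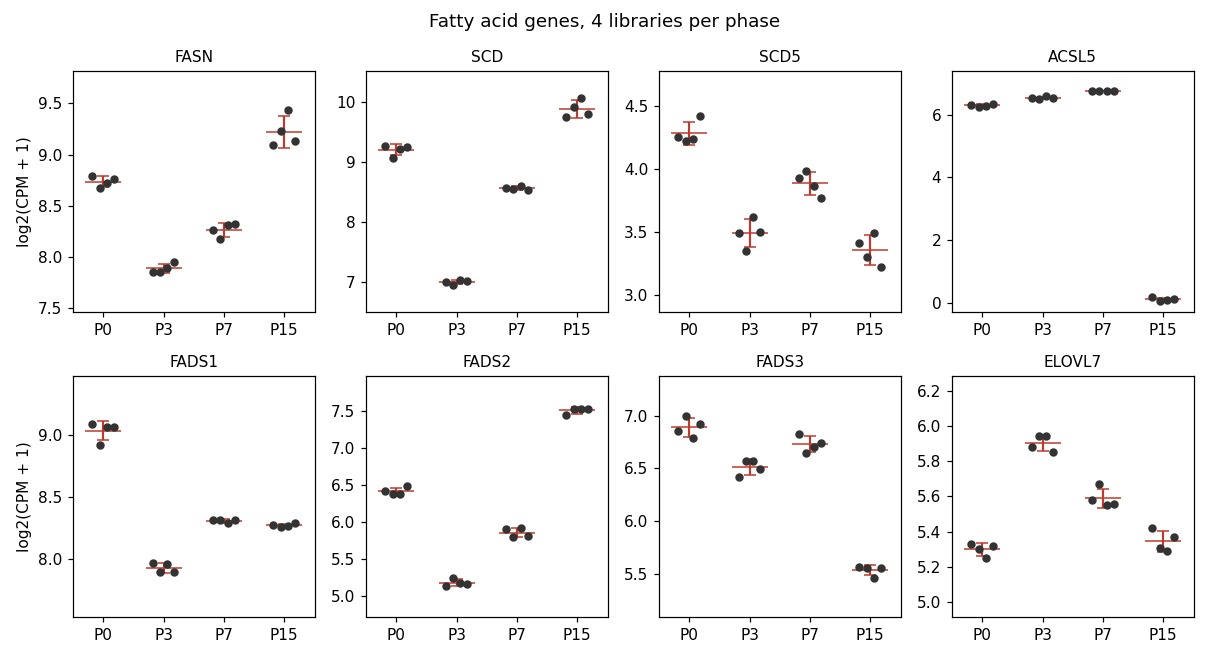
Black points are the log2(CPM + 1) values of the 4 libraries of each phase for 8 fatty acid genes, and red bars are the mean ± SD; each panel has its own vertical range. FASN, SCD and FADS2 dip in P3 and peak in P15, FADS1 stays below its P0 level, FADS3 is lowest in P15, ELOVL7 peaks in P3, and ACSL5 falls to 0.07 to 0.17 in P15.

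The elongases, which lengthen fatty acids by adding carbon units, were mixed. ELOVL6, which acts on palmitate, followed FASN, at 5.41 to 5.48 in P0, 4.60 to 4.75 in P3, 5.01 to 5.13 in P7 and 5.74 to 5.85 in P15, 1.15 ± 0.044 higher in P15 than in P3 (limma adjusted p = 1.21e-17). ELOVL7 did the reverse at P3, rising by 0.60 ± 0.041 to 5.85 to 5.94 from 5.25 to 5.33 (adjusted p = 4.81e-12), and was back at 5.29 to 5.42 in P15. ELOVL1, for very long chains, was 7.01 to 7.07 in P0 and 7.66 to 7.71 in P15, and ELOVL5, for polyunsaturated chains, changed by at most 0.24 at any step.

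Acyl-CoA synthetases activate free fatty acids, and ACSL5 had the largest change of any member. It was 6.32, 6.25, 6.29 and 6.33 in P0, 6.54, 6.52, 6.59 and 6.53 in P3, 6.77, 6.76, 6.75 and 6.76 in P7, and 0.17, 0.07, 0.08 and 0.12 in P15. It rose by 0.25 ± 0.041 and 0.21 ± 0.041 over the first steps (limma adjusted p = 1.11e-05 and 9.59e-05), and in P15 every library was close to 0. The 4 P15 values correspond to about 5, 2, 2 and 4 counts, 13 in all, or 0.0795 CPM against a mean of 107 CPM in P7. The ratio of 1350 has a 95% counting interval of 789 to 2530 (exact Poisson, counting error only). The fitted log2 fold change of -6.65 depends on the number added before the logarithm and was -9.24 with 0.1 and -4.47 with 5.

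ACSL5 lies on chromosome 10 from 112374116 to 112428379. Its tested neighbours had lower phase means in P15 too, by uneven amounts, and remained well above 0. From P7 to P15, BBIP1 went from 4.07 to 3.91 and NHLRC2 from 5.9 to 5.58. The drops were widest for ZDHHC6 and VTI1A. ZDHHC6, which shares exon bases with ACSL5 on the opposite strand, had phase means of 5.95 in P0, 6.13 in P7 and 4.51 in P15, and VTI1A had 5.11, 5.01 and 3.88. Of all tested genes, 40.1% were lower in P15 than in P7 by adjusted p. The other synthetases changed by less than 2-fold. ACSL3 was higher in P3 and P7 (7.59 to 7.64 in both) than in P0 (7.00 to 7.09) and came back to 7.13 to 7.16 in P15, ACSL1 was lowest in P15 at 6.01 to 6.06, and ACSL4 moved by at most 0.22 at any step.

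SCARB1, the HDL receptor, which takes up cholesterol from lipoproteins, was 5.41 to 5.49 in P0, 3.76 to 3.94 in P3, 4.80 to 4.99 in P7 and 7.37 to 7.53 in P15. The phases did not overlap, and P15 was 1.97 ± 0.051 above P0 (limma adjusted p = 3.35e-21).

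Of 7 genes that process SREBPs or turn over INSIG proteins, none reached 2-fold in any comparison. Of all tested genes, 1.84% (P7 against P3) to 27.1% (P15 against P3) did, so with 7 genes this count does not set the list apart. In P3 against P0, limma put 4 higher and 2 lower by adjusted p (against 31.4% and 37.3% of all tested genes). In P15 against P0 their log2 fold changes ran from -0.23 to 0.76. Of 3 tested genes that encode LXR beta or are LXR targets, ABCA1, the cholesterol exporter, was at least 2-fold lower in P15 than in P0, P3 and P7. It was 1.41 to 1.79 against 2.96 to 3.56 in the other phases. Of all tested genes, 11.5%, 12.2% and 12.1% were lower by this rule. NR1H2, for LXR beta, was 5.36 to 5.62 in P0 and 6.38 to 6.43 in P15, and the target LPCAT3 was 4.37 to 4.46 and 3.75 to 4.10. The receptor gene NR1H3 was also higher in the P15 libraries.

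MID1IP1, which activates acetyl-CoA carboxylase, was 5.75 to 5.80 in P0, 4.44 to 4.69 in P3, 5.16 to 5.23 in P7 and 6.33 to 6.40 in P15. It fell by 1.23 ± 0.044 at P3 and rose by 1.16 ± 0.044 from P7 to P15 (limma adjusted p = 2.93e-17 and 9.75e-18), the course of FASN.

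Of 7 tested genes of glycerolipid synthesis and lipid droplets, 3 were higher and 3 lower in P3 than in P0 by adjusted p (against 31.4% and 37.3% of all tested genes). LPIN1, a phosphatidate phosphatase, was 5.95 to 6.23 in P0, 5.14 to 5.23 in P3, 5.51 to 5.67 in P7 and 7.05 to 7.27 in P15, 1.02 ± 0.054 above P0 (limma adjusted p = 8.87e-15). DGAT2, which makes triglycerides, also fell at P3 but then stayed below P0. It was 3.48 to 3.68 in P0, 2.42 to 2.64 in P3, 2.05 to 2.35 in P7 and 2.28 to 2.57 in P15. From P0 to P15 it changed by -1.17 ± 0.084 (limma adjusted p = 3.16e-12). GPAM, which starts glycerolipid synthesis, was 4.54 ± 0.0424 in P0 and 3.71 ± 0.0351 in P15 (SD, n = 4). Of 10 tested genes of fatty acid oxidation, 1 was at least 2-fold higher in P15 than in P0, near the 12.2% of all tested genes. It was PPARD, at 7.20 to 7.43 against 5.43 to 5.57. In the rest of the elongation cycle, where 6 of 8 genes were tested, HSD17B12 was lower in P15 (5.37 to 5.48 against 6.67 to 6.83 in P0) and ELOVL4 higher (4.07 to 4.35 against 2.87 to 3.05), each by at least 2-fold. Of all tested genes, 11.5% were lower and 12.2% higher by this rule.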

How the data were processed

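RNA-sequencing values of 16 libraries were used, 4 per phase. From the paper's methods and the submitters' processing notes, the authors aligned paired-end reads with STAR 2.6.1a to GRCh38 and counted them on genes with featureCounts. The table the authors deposited gives, for 39007 symbols, log2 of the CPM with 1 added, to 2 decimals. The strand setting is not given in the sources used here. The quantile normalization and median centring that the methods also name are not carried by the deposited log2 values.

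Library totals, read from the steps between low values, were 33.6 to 50.0 M counts, and 1 count was 0.02 to 0.0297 CPM. Phases were compared with limma 3.58.1 (R 4.3.3), in a fit of all 16 libraries with a mean for each phase and a trended variance prior. The filter was a mean above 1 CPM (13249 genes), and p-values were adjusted over these by Benjamini-Hochberg. Tested on simulated data of 13249 genes for P3 against P0, the procedure recovered 200 of 200 changed genes with 0 false calls. All planted changes were larger than 2-fold, the noise was independent between genes, and the other genes were left unchanged. The test thus checks that the code runs as meant, not the error rate in these data. The members and lists were chosen with earlier results of these data known. All 44 members are accounted for. Those called at 2-fold or leading a step are given by library or by range, and of each other list at most the 3 largest called changes are named. Some genes of the other lists are not reported here, and the lists that hold them are given without counts. Coordinates and exon lengths are those of GENCODE 44, and promoters those of RefSeq on GRCh38.p14. Python 3.11.15 with pandas 2.3.3, numpy 2.4.6 and matplotlib 3.10.9 was used for tables and figures. Replicate numbers came from the sample descriptions. Alternatives changed the filter, the pseudocount (0.1 or 5), the scaling (quantiles or medians), the fold threshold and the variance prior, added a replicate block, fitted only the compared phases, or left out 1 library.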

Additional observations from a re-analysis of the deposited data

Results flagged for a closer look

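In 16 of the 176 sets of 4 libraries (44 members in 4 phases), 1 library stood apart from the other 3 by Dixon's criterion for 4 values, where chance gives about 1 in 20, or 8.8. The gap is given as a share of the range of the 4 values. Lower than the other 3 were LSS in P0 replicate 3 (0.87) and P7 replicate 2 (1.00), TM7SF2 in P3 replicate 4 (0.83), DHCR7 in P15 replicate 1 (0.86), INSIG1 in P0 replicate 2 (0.89), ME1 in P3 replicate 2 (0.83), ACACA in P3 replicate 2 (0.94), FADS1 in P0 replicate 2 (0.88) and P7 replicate 3 (1.00), FADS2 in P15 replicate 1 (0.89) and FADS3 in P15 replicate 3 (0.90). Higher were EBP in P15 replicate 4 (0.90), INSIG1 in P7 replicate 3 (0.89), INSIG2 in P15 replicate 3 (0.87), ACACA in P15 replicate 3 (0.83) and SCD5 in P0 replicate 4 (0.85). The deviations were small beside the steps between phases: INSIG2 in P15 replicate 3 was 4.60 where the others were 4.37 to 4.40, and FADS1 in P7 replicate 3 was 8.29 where the others were at 8.32.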

How the results depend on the processing

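No direction of a called change or count reversed under the alternatives run. The number of members at least 2-fold apart in P7 against P0 went from 2 to 0 with a pseudocount of 5. Without a fold threshold the counts were 39 in P3 against P0, 40 in P7 against P3, 43 in P15 against P7, 36 in P7 against P0, 42 in P15 against P0 and 42 in P15 against P3. With a threshold of 0.5 on the log2 scale they were 27, 10, 31, 13, 23 and 36 in the same order. Leaving out each library in turn gave 10 to 11, 1 to 2, 16 to 18, 2 to 2, 8 to 11 and 21 to 24, and the count of 2 in P7 against P3 came without P3 replicate 2 or without P7 replicate 2. With the replicate number as a block, by either numbering, the counts were 11, 1, 16, 2, 10 and 22, as without it. The numbers do not pair the libraries (correlations of same-numbered deviations -0.15 to 0.22 over 24 pairs). Single members lost the 2-fold call 22 times under other settings and 12 times with a library left out. Some lay near the threshold (HMGCS1, HSD17B7, STARD4, IDI1), but with a pseudocount of 5 some lost it from farther off: in P15 against P3, CYP51A1 went from 1.37 to 0.91, NR1H3 from 1.32 to 0.90 and ACACB from 1.26 to 0.96, and in P7 against P0 INSIG2 went from 1.15 to 0.99 and TM7SF2 from -1.35 to just under 2-fold. Values such as ACSL5 in P15, at 2 to 5 counts a library, are limited by depth. One line was selected, and separate cultures are not stated.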
